A study of Drosophila melanogaster with 72 samples.

Results

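Respiratory complex I is represented here by 34 genes for nuclear-encoded subunits, of 15240 genes measured. The genes were taken by their Drosophila CG numbers as the deposited annotation gives them, and each is described by its transcript with the highest mean level. Of the 34, 7 encode core subunits, 26 encode accessory subunits and 1 encodes the mitochondrial acyl carrier protein. The core subunits made inside mitochondria are not analysed here.

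RNA was sequenced from male Oregon R flies, 1 library for each combination of tissue, age, feeding and time of day. Flies under time-restricted feeding (TRF) were switched between the standard cornmeal and molasses food and a medium of agar and water only, and the controls were fed ad libitum (ALF). The hearts were taken at 5 weeks of age, and heads and peripheries (the body without the head) at 3, 5 and 7 weeks. Sampling was at zeitgeber time (ZT) 0, 6, 12 and 18 h, counted by convention from lights on, and every 3 h for heads and peripheries at week 5. The flies are wild type and all male, so every group shares strain and sex, and whole tissues were used. In such bulk samples a smaller number of cells of a type and less RNA per cell cannot be told apart.

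Complex I takes electrons from NADH, passes them along iron-sulfur clusters to ubiquinone and pumps protons across the inner mitochondrial membrane. Its peripheral arm holds an N module, which oxidises NADH, and a Q module, which binds ubiquinone. The membrane arm pumps the protons and carries many accessory subunits, which stabilise the complex and are needed for its assembly. Flight muscle, heart and photoreceptors depend strongly on this chain.

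Of 72 libraries, 60 entered the comparisons: 8 of 8 from heart, 26 of 32 labelled head and 26 of 32 labelled periphery. The rhodopsin transcript ninaE went against the tissue label in the other 12, with under 1000 FPKM (fragments scaled to transcript length and library depth) in a head or over 1000 FPKM in a periphery. The libraries used held 0.210 to 23.7 mega-reads (M), as recovered from the FPKM values, with 7.78 to 23.7 M in hearts, 0.210 to 18.6 M in heads and 6.48 to 21.7 M in peripheries. The clock transcript tim casts doubt on the ZT labels of TRF peripheries at weeks 3 and 7, and the cause of its order was not tested. In week 3 peripheries it was 63.8 and 21.7 FPKM in TRF flies at ZT12 and ZT18, against 18.4 and 92.5 FPKM in ALF flies. All fits that pair libraries by ZT were therefore also run without that pairing. A single head library, ALF at week 5 and ZT15, stood apart from all others and is described with its values before the feeding comparisons.

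Nearly all subunits were expressed at a similar, high level in every tissue. Medians lay between 80 and 500 FPKM for 31 of 34 members in heart, 32 of 34 in head and 32 of 34 in periphery. The median member had 135 FPKM in heart, 155 FPKM in head and 198 FPKM in periphery. ND-51 (CG9140), the subunit that binds NADH and the flavin, was the highest in periphery at 492.9 ± 40.6 FPKM (SD, n = 26) and the highest in head by its median of 339 FPKM. In heart the highest was ND-B14.5B, an accessory subunit of the membrane arm, at 333.5 ± 52.7 FPKM (SD, n = 8). The order of the 34 members was similar between tissues, with Spearman's rho of 0.78 between heart and head, 0.56 between heart and periphery and 0.84 between head and periphery (medians over libraries, 34 members that share libraries, given as a description).

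A pair of accessory subunits fell far below the rest. ND-B8 (CG15434), the fly counterpart of NDUFA2 in the peripheral arm, had 3.7 ± 1.0 FPKM in heart (SD, n = 8), 1.2 ± 1.6 FPKM in head (SD, n = 26) and 21.6 ± 5.0 FPKM in periphery (SD, n = 26). Its head values rest on 0 to 10 reads per library, and its transcript overlaps the gene CG15441 on the opposite strand, which an unstranded library cannot separate. The same limit holds for ND-51, ND-18, ND-B14, ND-MWFE, ND-19, ND-B12, ND-B15, ND-SGDH, ND-B22 and NP15.6, which also overlap genes on the opposite strand. ND-AGGG (CG40002), the counterpart of NDUFB2 in the membrane arm, had 31.1 ± 5.2 FPKM in heart, 13.6 ± 3.9 FPKM in head and 17.4 ± 6.0 FPKM in periphery (SD, n = 8, 26 and 26). It is annotated on the heterochromatic sequence 3LHet of the dm3 build.

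The transcripts that the results below turn on lie in several places of dm3, with positions as the deposited table gives them. The core subunit ND-75 spans X from 8142684 to 8145484 on the minus strand, and ND-51 spans 2L from 6060835 to 6062757 on the minus strand. ND-24 lies on X from 17526122 to 17527539 (plus strand) and ND-23 on 3R from 11661770 to 11662839 (minus strand). Among accessory subunits, ND-B8 lies on 2L from 4454626 to 4455207 (plus strand), ND-B14.5B on 2L from 3145130 to 3145721 (minus strand) and ND-AGGG on 3LHet from 459586 to 460457 (plus strand). Their transcripts are 2536 bases long for ND-75, 1591 for ND-51, 1055 for ND-24, 814 for ND-23, 747 for ND-AGGG, 455 for ND-B8 and 453 for ND-B14.5B.

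**Figure D1:**
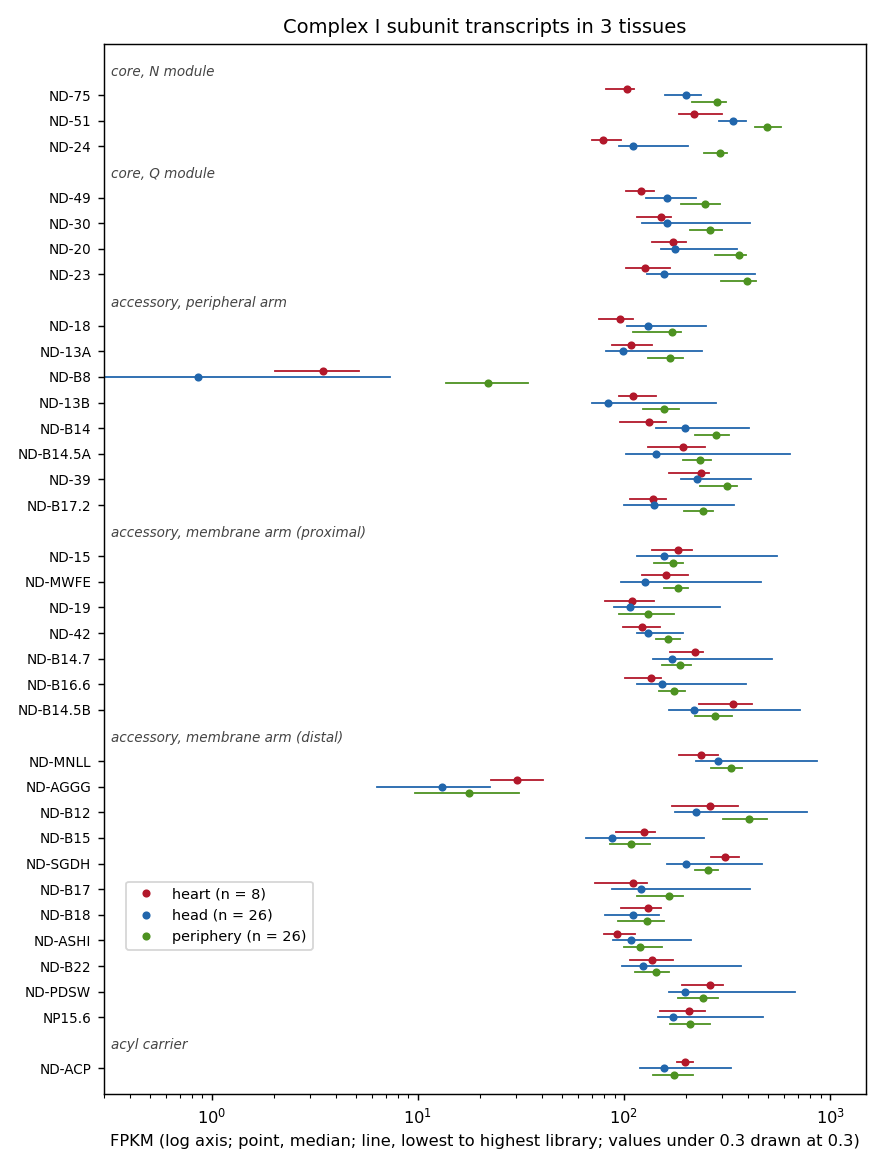
Level of each of the 34 subunits in FPKM on a log axis, with heart, head and periphery drawn from top to bottom within each row; points are medians and lines run from the lowest to the highest library used. Most subunits lie between 80 and 500 FPKM, ND-B8 and ND-AGGG lie far lower, and the long upper ends of many head lines come from the single ALF library at week 5 and ZT15.

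Tissues were compared at week 5 over ZT0, ZT6, ZT12 and ZT18, with 8 heart, 6 head and 8 periphery libraries and with ZT and feeding as terms. Changes are differences of mean log2(FPKM + 1), each with its standard error (SE), from limma with Benjamini-Hochberg adjustment over 12185 genes. Against head, heart had 17 members higher and 8 lower, where 29.8% of all genes tested were higher and 47% lower. The median member changed by 0.17 and the median gene by -0.21. Against periphery, heart had 7 members higher and 23 lower, where 17% of all genes were higher and 65.1% lower, and the medians were -0.41 for the members and -0.59 for all genes. Head against periphery had 0 members higher and 30 lower, where 33.3% of all genes were higher and 41.8% lower, with medians of -0.45 and -0.08.

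These directions depend on how libraries are scaled. Rescaling by the median of ratios moved the median of all genes to 0.30 for heart against head, -0.25 for heart against periphery and -0.27 for head against periphery. The members called higher and lower were then 31 and 1, 13 and 11, and 0 and 34 in those 3 comparisons. Under quantile normalization they were 15 and 12, 11 and 17, and 5 and 14. A single factor for each library shifts all members of a comparison alike and hardly alters their order.

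Of the 7 core subunits, 5 were called lower and 0 higher in heart against head, with a median change of -0.42. All 7 were called lower in heart against periphery, with a median of -1.22. Among all genes, 47% were lower in heart against head and 65.1% in heart against periphery. ND-75 (CG2286), the largest core subunit and the carrier of several iron-sulfur clusters of the N module, had 82.0, 103.8 and 111.9 FPKM in heart (lowest, median, highest, n = 8), 190.8, 207.1 and 220.5 FPKM in head (n = 6) and 256.9, 279.2 and 291.8 FPKM in periphery (n = 8). The ranges of the 3 tissues do not overlap. ND-75 changed by -0.97 ± 0.06 in heart against head (SE, limma, adjusted p = 3.3e-09) and stayed lower after median-of-ratios scaling, at -0.32 ± 0.07 (limma, adjusted p = 0.00092). Against periphery it changed by -1.43 ± 0.05 (limma, adjusted p = 1.9e-11).

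ND-51 had 185.6, 217.8 and 300.5 FPKM in heart, 308.0, 335.3 and 391.7 FPKM in head and 444.7, 522.2 and 560.6 FPKM in periphery (lowest, median, highest). Every heart library lay below every head and periphery library at these times. Its change in heart against head was -0.58 ± 0.09 (SE, limma, adjusted p = 8.8e-05), and 0.07 after median-of-ratios scaling, which was not called.

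ND-24, which holds an iron-sulfur cluster beside the flavin, had 69.6, 79.4 and 97.0 FPKM in heart, 100.4, 113.8 and 119.7 FPKM in head and 268.3, 287.0 and 314.4 FPKM in periphery. Its change was -0.42 ± 0.08 in heart against head (SE, limma, adjusted p = 0.00036) and -1.80 ± 0.07 in heart against periphery (limma, adjusted p = 5.2e-11). Median-of-ratios scaling turned the first of these to 0.24 (adjusted p = 0.027). In the Q module, ND-49 changed by -0.43 and ND-23 by -0.23 in heart against head, both called and both positive after that scaling, at 0.23 and 0.43. ND-30 and ND-20, which lie along the path to ubiquinone, differed by -0.02 and 0.01 and were not called.

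The core subunits with the widest gap between tissues were ND-24 and ND-23. ND-23 (CG3944), an iron-sulfur protein of the Q module, had 102.2, 126.0 and 166.7 FPKM in heart, 137.7, 159.1 and 172.8 FPKM in head and 365.1, 393.6 and 425.8 FPKM in periphery. Heart and head overlap, and periphery lies above both. The change was -1.58 ± 0.07 in heart against periphery (SE, limma, adjusted p = 1.7e-10) and -1.35 ± 0.08 in head against periphery (limma, adjusted p = 2.1e-09), beside -1.38 ± 0.08 for ND-24 in head against periphery (limma, adjusted p = 1.6e-09). ND-20 followed at -1.05 in head against periphery.

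Accessory subunits of the peripheral arm were split. Against head, 4 of 8 were higher in heart (ND-B8, ND-13B, ND-B14.5A and ND-13A) and 2 were lower (ND-18 and ND-B14), beside 29.8% and 47% of all genes. Against periphery, 8 of 8 were lower in heart, beside 65.1% of all genes. ND-18, the counterpart of NDUFS4, which joins the N module to the rest late in assembly, changed by -0.50 in heart against head. It had 75.9, 95.4 and 110.3 FPKM in heart (n = 8) and 132.3, 135.8 and 155.9 FPKM in head (n = 6). At these times the 2 ranges do not overlap. Over all libraries used ND-18 came down to 103.6 FPKM in head, and the 2 ranges then overlapped. After median-of-ratios scaling its change was 0.16 and not called.

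ND-B8 followed the body. It had 2.0, 3.5 and 5.2 FPKM in heart, 0.2, 0.8 and 1.4 FPKM in head and 17.7, 22.1 and 25.6 FPKM in periphery. At these times no library of 1 tissue reached the range of another. Over all libraries used heart and head overlapped, with 4.60 FPKM in a TRF head at week 3. The ALF week 5 ZT15 head had 7.33 FPKM. ND-B8 changed by -2.31 ± 0.12 in heart against periphery (SE, limma, adjusted p = 8.0e-10), on a scale that understates changes of low genes. The changes were 1.32 ± 0.14 in heart against head and -3.62 ± 0.14 in head against periphery (SE). Its mean in these heads was 0.84 FPKM, under the limit of 1 FPKM. It passed that filter only through the other tissues, so the calls against head are a description.

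With the deposited scaling, membrane-arm accessory subunits ran the other way from the core in heart against head. After median-of-ratios scaling the core subunits ND-24, ND-49 and ND-23 were higher as well. Of 18 membrane-arm subunits, 12 were called higher and 1 lower, ND-MNLL at -0.24, where 29.8% of all genes were higher and 47% lower. The medians were 0.31 for the 7 in the proximal part and 0.29 for the 11 in the distal part. By length, the median change under 500 bases was 0.40 for members of any part and 0.39 for all genes. From 500 to under 1000 bases it was 0.22 for members and 0.34 for all genes. ND-AGGG showed the largest change among the membrane-arm subunits, at 1.16 ± 0.12 (SE, limma, adjusted p = 1.1e-06). It had 22.7, 30.3 and 40.5 FPKM in heart, 10.6, 12.9 and 15.96 FPKM in head and 16.3, 21.5 and 28.7 FPKM in periphery, so heart lay above head throughout and overlapped periphery.

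ND-B14.5B, the counterpart of NDUFC2, had 231.5, 336.3 and 415.8 FPKM in heart, 173.4, 194.1 and 231.7 FPKM in head and 221.5, 264.3 and 287.9 FPKM in periphery. Only the lowest heart library, TRF at ZT6, came down to the highest head value. Its change was 0.78 ± 0.08 against head (SE, limma, adjusted p = 1.7e-06) and 0.34 ± 0.07 against periphery (limma, adjusted p = 0.00094). ND-SGDH, a membrane-arm subunit, changed by 0.67 and 0.29 in the same 2 comparisons and ND-B15 by 0.62 and 0.28, all called. ND-SGDH had 264.0, 308.0 and 362.8 FPKM in heart, 186.2, 192.3 and 226.7 FPKM in head and 221.5, 250.0 and 274.8 FPKM in periphery.

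ND-ACP, the acyl carrier protein that also serves mitochondrial fatty acid synthesis, was higher in heart by 0.37 against head and by 0.28 against periphery. Head against periphery was -0.09 and not called. The calls of 9 members for heart against head, 16 for heart against periphery and 14 for head against periphery kept their sign and their side of the threshold in all 14 alternative settings.

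**Figure D2:**
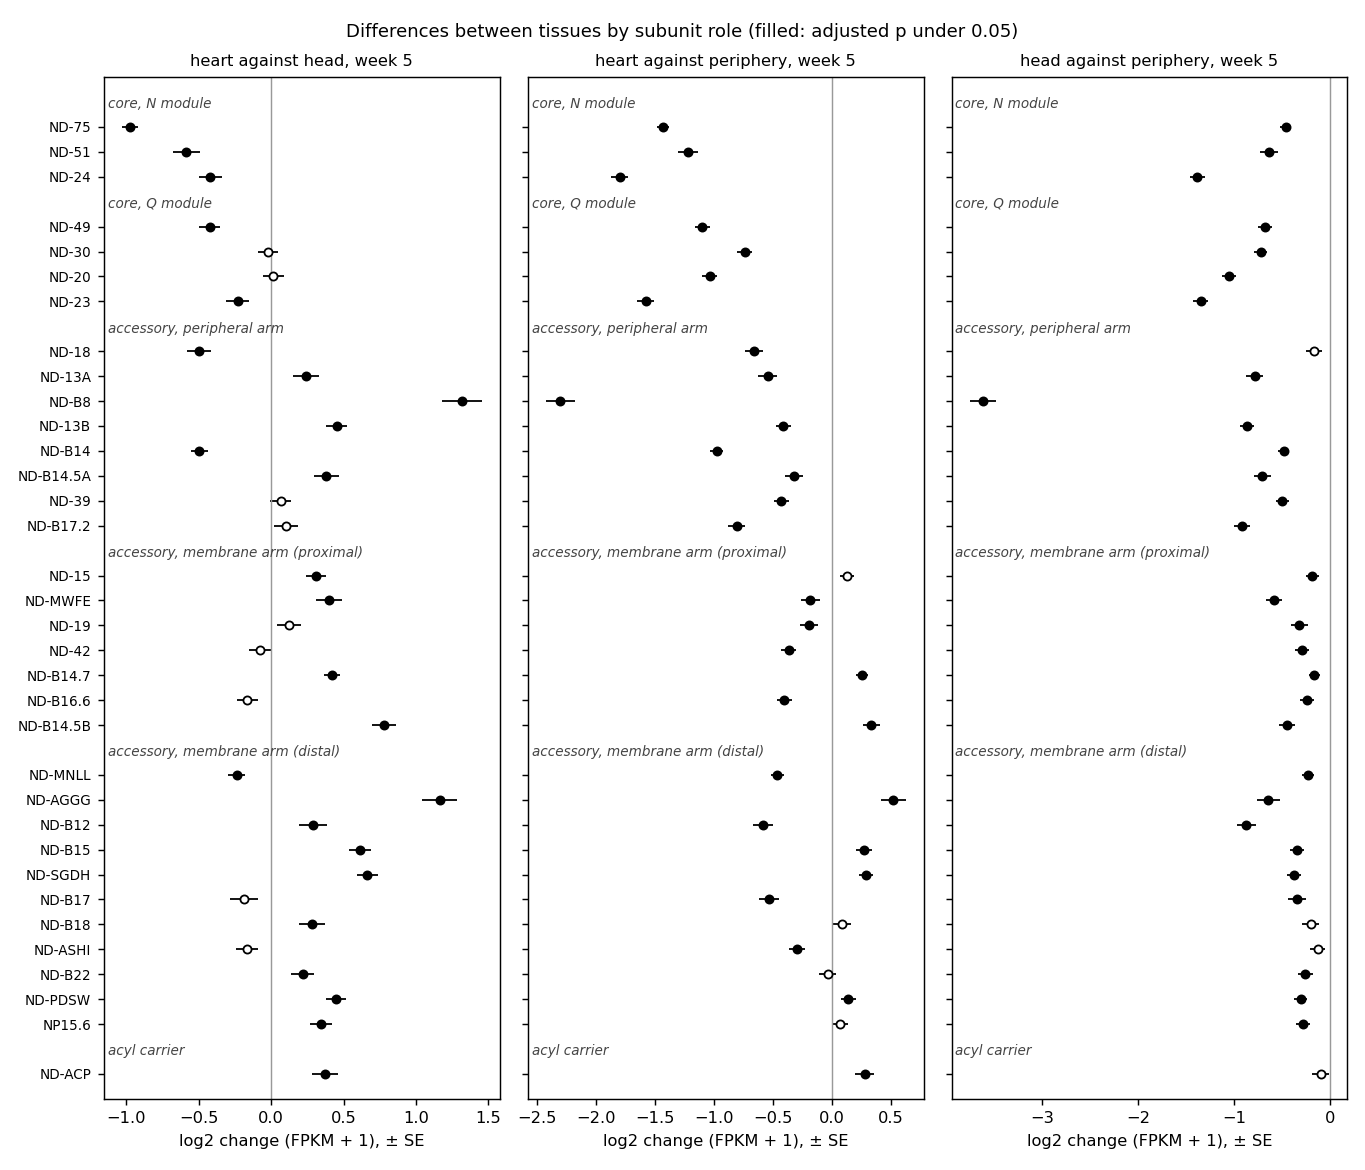
Change of each subunit between tissues at week 5, in log2(FPKM + 1) with its SE, ordered by place in the complex; filled points passed an adjusted p of 0.05. The 7 core subunits lie between -0.97 and 0.01 for heart against head. There 12 of the 18 membrane-arm subunits were called higher, beside 29.8% of all genes. Median-of-ratios scaling moved all of these changes upward and turned ND-24, ND-49 and ND-23 positive.

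The balance of core to membrane-arm transcripts can be read within each library, where scaling cancels. It was taken as the mean log2(FPKM + 1) of the 7 core subunits minus that of 17 membrane-arm subunits, leaving out the low ND-AGGG. It was -0.48, -0.36 and -0.16 in heart (lowest, median, highest, n = 8), 0.04, 0.22 and 0.40 in head without the ALF week 5 ZT15 library (n = 25) and 0.52, 0.78 and 1.01 in periphery (n = 26). The 3 ranges do not overlap, and no test was made of this score.

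The ZT15 library itself had -0.54, below every heart. Transcript length moves with this balance, because core transcripts are longer. In heart against head the median change of all genes was 0.39 for the 886 genes under 500 bases and -0.70 for the 3327 of 2000 to under 4000 bases. Restricted to transcripts of 500 to under 1000 bases, with 3 core and 10 membrane-arm subunits, the balance was -0.15 to 0.11 in heart, 0.07 to 0.36 in head without the ZT15 library and 0.61 to 1.17 in periphery. Heart and head then overlapped, periphery stayed above both, and the part of length in the tissue difference was not tested further.

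**Figure D3:**
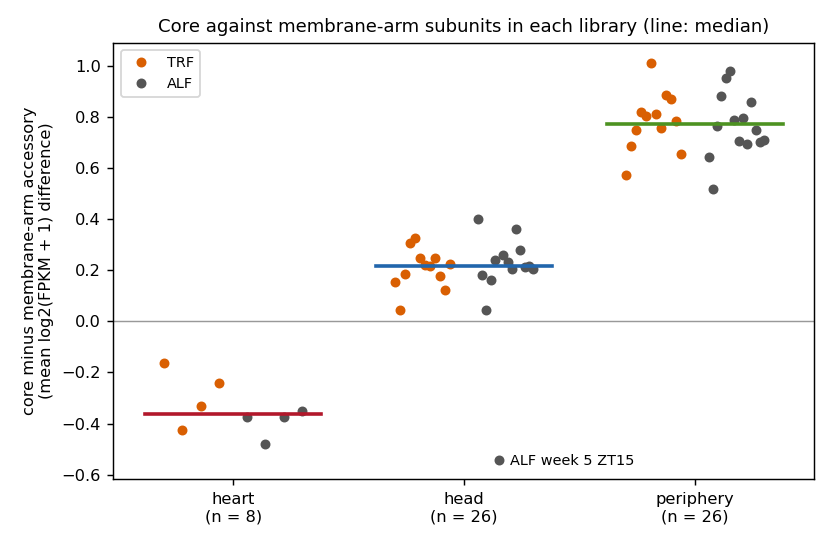
Mean log2(FPKM + 1) of the core subunits minus that of the membrane-arm accessory subunits, 1 point for each library, with TRF left of ALF within each tissue and a line at the tissue median. Heart lies between -0.48 and -0.16, head between 0.04 and 0.40 apart from the ALF library at week 5 and ZT15 at -0.54, and periphery between 0.52 and 1.01.

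Genes related to core subunits were seen almost only in the body. ND-20L, ND-24L, ND-49L, ND-51L1 and ND-51L2 are paralogs of ND-20, ND-24, ND-49 and ND-51. Their medians were 0.42 to 0.95 FPKM in heart, 0 to 0.07 FPKM in head and 10.8 to 32.8 FPKM in periphery. All 5 were called lower in heart and in head than in periphery. They passed the filter on low values only through periphery, so these calls are a description, and no comparison is made between their low levels in heart and head. Markers of testis moved with them, with a summed level of 3 genes of 26.6 to 232.7 FPKM in heart, 0 to 5.6 FPKM in head and 828 to 1466 FPKM in periphery. Reads shared with a paralog could add to the periphery level of a core subunit, which was not tested directly. With only the core subunits without a listed paralog (ND-75, ND-30 and ND-23) the balance was -0.55 to -0.25 in heart, 0.03 to 0.38 in head without the ZT15 library and 0.51 to 0.90 in periphery.

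Among 34 genes of complexes II to V, 20 were called higher and 5 lower in heart against head (median 0.25), beside 29.8% and 47% of all genes. In heart against periphery 7 and 20 were called (median -0.29), beside 17% and 65.1%, and in head against periphery 1 and 27 (median -0.48), beside 33.3% and 41.8%. These related lists were fitted with the deposited scaling alone, to which the shifts given above apply. Of 7 assembly factors of complex I, 2 were called higher and 2 lower in heart against head, and 1 and 4 in heart against periphery. CG3270, a putative counterpart of the human factor FOXRED1, had medians of 25.2, 54.3 and 123.9 FPKM in heart, head and periphery, and changed by -0.91 in heart against head and -2.23 in heart against periphery. Another factor, sicily, changed by -0.56 and -0.67. Nubpl, which delivers iron-sulfur clusters to complex I in human cells, changed by 0.24 and 0.20. All 6 of these changes were called.

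Of 7 regulators of mitochondrial genes, 6 were called lower in heart against head (median -0.67), where 47% of all genes were lower (median -0.21), and 6 against periphery (median -0.69), where 65.1% were lower (median -0.59). None was called higher in either. The transcription factor ewg, the fly relative of the human factor NRF1, had medians of 2.78 FPKM in heart, 24.7 FPKM in head and 5.22 FPKM in periphery, a change of -2.74 in heart against head. TFAM, which packages mitochondrial DNA, had 23.6, 30.3 and 50.3 FPKM in heart, head and periphery. It changed by -0.30 in heart against head and by -0.95 in heart against periphery.

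Within tissues the subunits rose and fell together from library to library. After removing the mean of each tissue and week, the median correlation between pairs of members was 0.55 over 59 libraries without the ALF week 5 ZT15 head, and 0.76 with it. For complexes II to V the medians were 0.64 and 0.76, and for mitochondrial ribosomal proteins 0.24 and 0.45. For cytosolic ribosomal proteins they were 0.54 and 0.82, so the degree seen in complex I is not particular to respiratory genes. These values describe libraries that differ in depth and carry no test. ND-B8 and ND-AGGG did not take part, with r of -0.24 and -0.09 to the mean of the other members over the 59 libraries, against 0.87 for ND-MNLL.

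The genes outside the list whose levels were most like the mean of the members over 60 libraries were ATPsynE, ATPsynCF6, UQCR-14, COX7C, Neb-cGP, levy, CG32576, cype, roh and NdufA3, with r of 0.92 to 0.95. NdufA3 is named after a complex I subunit but is not among the 34. Of these, 6 are on the list of complexes II to V, and their transcripts apart from CG32576 are at most 614 bases long. Without the ZT15 library r was 0.81 to 0.86 for the 10 most alike genes, and 5 were the same: ATPsynE, ATPsynCF6, levy, cype and roh.

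The head library of ALF flies at week 5 and ZT15 was unlike the others of its group. The mean of the 34 members was 8.22 on the log2 scale, against 6.90 to 7.10 in the 6 other libraries of that group, and 32 of 34 members were above all 6. Its FPKM summed to 963331 over all genes, against 596514 to 630728 in the 6 others, and it held 2.10 M reads. The size of the difference followed transcript length, with Spearman's rho of -0.75 over the 34 members and -0.67 over 9879 genes. ND-B14.5A, of 506 bases, had 642 FPKM there, against 152 ± 8.38 FPKM in the others (SD, n = 6), a ratio of 4.22. ND-75, of 2536 bases, had 157 FPKM there, against 218 ± 13.0 FPKM. Among all genes under 500 bases the median difference was 1.40, and among those of 4000 bases or more it was -1.28. From 500 to under 1000 bases, where 21 members lie, it was 0.96 for all genes and 1.29 for these members. The share of all genes above all 6 other libraries was not counted.

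Whether time-restricted feeding changed complex I transcripts was asked in each tissue and week. In heads and peripheries the spread behind each SE is pooled over weeks 3, 5 and 7. The week 5 ZT15 library therefore widens the SE of every head comparison. No member passed the threshold in any of the 7 comparisons by limma, and limma-voom on the recovered reads also called 0 in each. By limma the members with an unadjusted p under 0.05 numbered 1, 0 and 0 in head at weeks 3, 5 and 7, 2, 0 and 0 in periphery at weeks 3, 5 and 7, and 6 in heart. The share of all genes called was 0% in 6 of the comparisons. In week 7 peripheries it was 0.117% higher and 0.05% lower. The median change was -0.07, -0.31 and -0.08 in head at weeks 3, 5 and 7, -0.13, -0.04 and -0.07 in periphery at weeks 3, 5 and 7, and -0.17 in heart. The median of all genes was -0.03, 0.04 and -0.06 in head, -0.02, 0.00 and -0.09 in periphery and -0.05 in heart.

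In heart, 33 of 34 members were below 0. The mean of the members was 7.13, 6.72, 7.04 and 7.02 in TRF hearts at ZT0, ZT6, ZT12 and ZT18, against 7.06, 7.00, 7.29 and 7.23 in ALF hearts. TRF hearts were higher at ZT0 and lower at the 3 other times, where 33, 34 and 33 of 34 members were lower. The median of all genes at these 3 times was -0.01, -0.09 and 0.01. By limma the smallest adjusted p was 0.71 and the SE of a member was 0.09 to 0.18. Without the ZT6 pair the median change was -0.13, and without ZT0 it was -0.26.

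ND-B12, a membrane-arm subunit, had 216, 171, 265 and 245 FPKM in TRF hearts at ZT0, ZT6, ZT12 and ZT18, against 285, 259, 359 and 300 FPKM in ALF hearts. It was lower in all 4 pairs, with a change of -0.43 ± 0.10 (SE, limma, adjusted p = 0.71). ND-B14.5A had 167, 131, 196 and 189 FPKM in TRF hearts, against 204, 186, 248 and 210 FPKM in ALF hearts, a change of -0.32 ± 0.10 that was also lower in all 4 pairs. In all, 12 of 34 members were lower in each pair, as were 8.43% of the 9726 genes tested.

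At the other end, ND-51 had 301, 186, 191 and 205 FPKM in TRF hearts, against 227, 212, 223 and 234 FPKM in ALF hearts, a change of -0.05 ± 0.14 that rests on the high TRF value at ZT0. ND-B8 had 3.95, 5.01, 2.88 and 5.18 FPKM in TRF hearts, against 2.02, 3.52, 3.37 and 3.45 FPKM in ALF hearts, a change of 0.36 ± 0.18 (limma, adjusted p = 0.71). Neither passed the threshold.

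Other lists moved with complex I in the heart. Of the complexes II to V, 34 of 34 genes were below 0 (median -0.18), with 0 called. The summed level of 7 muscle markers was 5585, 2949, 3324 and 4240 FPKM in TRF hearts at ZT0, ZT6, ZT12 and ZT18, against 5477, 4475, 7110 and 4879 FPKM in ALF hearts. It was lower under TRF at the same 3 times at which the mean of complex I was lower. Photoreceptor markers summed to 38.3 to 95.6 FPKM in TRF hearts and to 88.1 to 152.0 FPKM in ALF hearts. TRF hearts had 7.78 to 19.8 M reads and ALF hearts 15.2 to 23.7 M. The part of muscle content or depth in the difference was not tested.

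**Figure D4:**
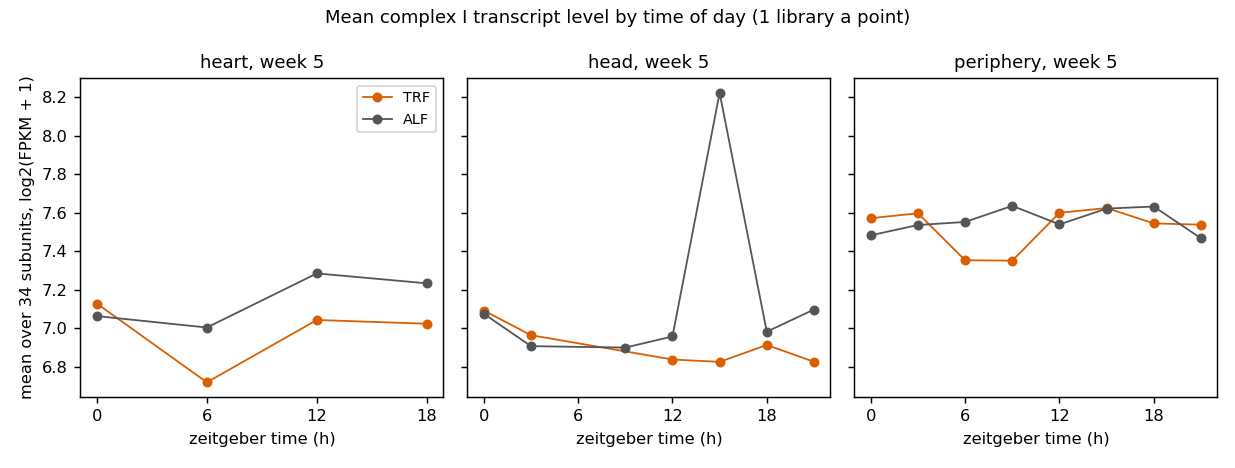
Mean log2(FPKM + 1) of the 34 subunits against zeitgeber time in hours at week 5, with 1 library a point, TRF in orange and ALF in grey. TRF hearts lie below ALF hearts at ZT6, ZT12 and ZT18, the ALF head library at ZT15 stands at 8.22, and the TRF peripheries at ZT6 and ZT9 are the lowest of that tissue at 7.35.

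In heads at week 5 all 34 members were below 0, and the ZT15 pair carried most of it. The TRF minus ALF difference of the members' mean was 0.02, 0.06, -0.12, -1.39, -0.07 and -0.27 at ZT0, ZT3, ZT12, ZT15, ZT18 and ZT21. Without the ZT15 pair the median change was -0.09. ND-PDSW, a membrane-arm subunit, had 166, 184 and 215 FPKM in TRF heads (lowest, median, highest, n = 6), against 171, 205 and 672 FPKM in ALF heads (n = 7). ND-B17 had 111, 117 and 136 FPKM in TRF heads, against 121, 127 and 409 FPKM in ALF heads. The top ALF value of both is the ZT15 library, and their changes were -0.42 ± 0.22 and -0.41 ± 0.23 (SE, limma, adjusted p = 0.91 for both). The smallest changes were -0.07 ± 0.12 for ND-75 and -0.09 ± 0.10 for ND-51. ND-75 had 175, 193 and 220 FPKM in TRF heads and 157, 214 and 234 FPKM in ALF heads.

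In heads at week 3 the most negative changes were those of the low genes ND-B8 and ND-AGGG. ND-B8 had 0, 1.24, 0 and 4.60 FPKM in TRF heads at ZT0, ZT6, ZT12 and ZT18, against 1.92, 1.60, 1.83 and 1.33 FPKM in ALF heads, a change of -0.50 ± 0.53. ND-AGGG had 8.46, 12.8, 6.37 and 21.0 FPKM in TRF heads, against 13.4, 21.4, 11.2 and 14.6 FPKM in ALF heads, a change of -0.38 ± 0.20. The groups overlap for both.

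The largest positive values at week 3 were 0.14 ± 0.30 for ND-B15 and 0.14 ± 0.24 for ND-B14. ND-B14 had 195, 178, 381 and 142 FPKM in TRF heads, against 171, 175, 191 and 223 FPKM in ALF heads. ND-B15 had 85.4, 75.9, 160.5 and 115 FPKM in TRF heads, against 65.3, 103, 86.1 and 138 FPKM in ALF heads. The high TRF value of both is the ZT12 library, which held 0.210 M reads.

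At week 7 only 2 head pairs remained, and the SE given is the pooled one and not the spread of these 2 pairs. ND-13A, an accessory subunit of the peripheral arm, had 96.8 and 96.1 FPKM in TRF heads, against 126, 118 and 115 FPKM in ALF heads, a change of -0.34 ± 0.30. ND-18 had 105 and 119 FPKM in TRF heads, against 127, 135 and 129 FPKM in ALF heads, a change of -0.23 ± 0.25. Neither overlaps between the groups, and neither passed (limma, adjusted p = 1.0). Both genes were picked for these changes among few libraries, so the lack of overlap is no support for a difference. ND-AGGG had 18.0 and 13.4 FPKM in TRF heads, against 12.8, 9.89 and 10.9 FPKM in ALF heads, and ND-B15 had 111 and 111 FPKM, against 107, 95.4 and 89.4 FPKM. Their changes were 0.43 ± 0.28 and 0.14 ± 0.42.

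Peripheries gave the tightest test, with an SE of 0.05 to 0.11 for a member at week 5. The TRF minus ALF difference of the members' mean was 0.09, 0.06, -0.20, -0.28, 0.06, 0.00, -0.09 and 0.07 at ZT0 to ZT21 in steps of 3 h. At ZT6 and ZT9, 33 of 34 members were lower in TRF flies, where the median of all genes was -0.01 and 0.06. Each is a single pair of libraries. The TRF library at ZT9 held 6.48 M reads, the fewest of the peripheries used, against 11.8 M in its ALF partner. No member was lower in all 8 pairs. ND-13B, an accessory subunit of the peripheral arm, had 124, 145 and 157 FPKM in TRF peripheries (lowest, median, highest, n = 8) and 141, 161 and 172 FPKM in ALF peripheries (n = 8), a change of -0.12 ± 0.06 (limma, adjusted p = 0.87). ND-B8 changed by -0.14 ± 0.09, with 16.62, 21.3 and 23.0 FPKM in TRF and 17.5, 23.5 and 25.6 FPKM in ALF peripheries. The largest positive changes were 0.05 for ND-51 and 0.04 for ND-AGGG.

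At week 3 the TRF minus ALF difference of the members' mean was -0.07 at ZT12 and -0.19 at ZT18, the only complete periphery pairs. ND-ACP had 176 and 160 FPKM in TRF peripheries, against 162, 207 and 217 FPKM in ALF peripheries, a change of -0.33 ± 0.12 (SE, limma, adjusted p = 0.75). ND-19, which holds disulfide bonds on the outer side of the inner membrane, had 134 and 124 FPKM in TRF and 115, 147 and 175 FPKM in ALF peripheries, a change of -0.31 ± 0.16. The ALF library at ZT6, which has no TRF partner, lies at the low end for both. ND-B8 and ND-AGGG changed by 0.19 ± 0.18 and 0.18 ± 0.21; ND-B8 had 31.6 and 25.6 FPKM in TRF and 34.1, 26.6 and 23.1 FPKM in ALF peripheries.

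At week 7 the most negative changes in periphery were -0.19 ± 0.12 for ND-MWFE (limma, adjusted p = 0.44) and -0.18 ± 0.12 for ND-ASHI, both in the membrane arm. ND-MWFE had 168 and 179 FPKM in TRF peripheries, against 204, 196 and 201 FPKM in ALF peripheries. ND-ASHI had 116 and 124 FPKM in TRF and 141, 126 and 146 FPKM in ALF peripheries. Both groups are apart for each gene, but the genes were picked for these changes. With so few libraries the separation is therefore a description and no support for a difference. ND-B8 had 13.6 and 20.1 FPKM in TRF and 14.1, 13.8 and 16.03 FPKM in ALF peripheries.

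The TRF effects of the tissues at week 5 were compared directly. By limma 0 members and 0% of all genes passed for heart against head, heart against periphery or head against periphery. The members with an unadjusted p under 0.05 numbered 0, 1 and 0, and limma-voom called 0. The median difference of TRF effects was -0.06, -0.14 and -0.07. The largest single value was that of ND-B8, 0.58 ± 0.25 in heart against periphery (limma, adjusted p = 0.93).

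Age was compared over ZT0, ZT6, ZT12 and ZT18 with feeding as a term, as far as libraries were kept. Peripheries of week 3 and week 7 had none at ZT0 and only ALF at ZT6, whereas those of week 5 had both feeding groups at each time. Heads had none at ZT6 in week 5, none at ZT12 in week 7 and only ALF at ZT18 in week 7. Age and any batch that follows age cannot be told apart. In head 0 of 33 members tested passed in any of the 3 comparisons, by limma and by limma-voom, and 1, 1 and 0 had an unadjusted p under 0.05 by limma. ND-B8 was too low to be tested there. The share of all genes called was 0% higher and 0% lower for week 7 against week 3, 0.0203% and 0.0305% for week 5 against week 3, and 0% and 0.0102% for week 7 against week 5.

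Head medians were 0.10, 0.05 and 0.07 in those comparisons. ND-18 had the largest positive change at week 5 against week 3, 0.29 ± 0.08 (SE, limma, adjusted p = 0.23), with 132, 136 and 156 FPKM at week 5 (n = 6) and 104, 110 and 136 FPKM at week 3 (n = 8). ND-B15 gave -0.30 ± 0.18 in that comparison and 0.42 ± 0.22 for week 7 against week 5. ND-MWFE and ND-B18 had the largest positive values at week 7 against week 3, 0.26 ± 0.12 and 0.25 ± 0.16.

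In periphery a few members changed with age. For week 7 against week 3, 5 members were higher and 1 was lower, where 6.28% of all genes tested were higher and 1.55% lower. For week 5 against week 3, 3 were higher and 0 lower, where 3.69% and 0.308% of all genes were called. For week 7 against week 5, 0 were higher and 1 was lower, where 0.475% and 1.07% were called. The median of the members was 0.10, 0.01 and 0.11 and that of all genes 0.06, 0.05 and 0.00.

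Of the 5 rises at week 7 against week 3, those of ND-23 and ND-20 were in core subunits of the Q module. ND-23 had 407, 372, 435, 422 and 425 FPKM at week 7, against 295, 306, 309, 336 and 306 FPKM at week 3. All week 7 libraries lay above all week 3 libraries, and the change was 0.40 ± 0.07 (SE, limma, adjusted p = 0.0080). At week 5 it had 365, 394 and 426 FPKM (lowest, median, highest, n = 8), 0.34 ± 0.07 above week 3 (limma, adjusted p = 0.022).

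ND-20 had 392, 348, 391, 379 and 380 FPKM at week 7, against 276, 302, 297, 298 and 304 FPKM at week 3, a change of 0.35 ± 0.08 (SE, limma, adjusted p = 0.018). ND-39, the counterpart of NDUFA9 beside the Q module, had 329, 342, 331, 353 and 342 FPKM at week 7, against 252, 268, 270, 287 and 315 FPKM at week 3, a change of 0.30 ± 0.07 (limma, adjusted p = 0.017). Neither gene's groups overlap. ND-B17.2, the counterpart of NDUFA12, rose by 0.28 (adjusted p = 0.035) and ND-42 by 0.25 (adjusted p = 0.047) by limma.

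ND-49, a core subunit of the Q module, was called only at week 5 against week 3, with 246, 251 and 292 FPKM at week 5 (lowest, median, highest, n = 8) and 203, 190, 211, 218 and 227 FPKM at week 3. The change was 0.31 ± 0.08 (SE, limma, adjusted p = 0.042), and week 5 lay above week 3 in these libraries. Over all 16 libraries of week 5 the ages just overlapped. The lowest at week 5 had 226.671 FPKM and the highest at week 3 had 226.681 FPKM. At week 7 it had 215 to 255 FPKM.

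ND-B8 fell with age. It had 13.6, 20.1, 14.1, 13.8 and 16.03 FPKM at week 7, against 31.6, 25.6, 34.1, 26.6 and 23.1 FPKM at week 3, and 17.7, 22.1 and 25.6 FPKM at week 5 (lowest, median, highest, n = 8). The change at week 7 against week 3 was -0.81 ± 0.13 (SE, limma, adjusted p = 0.0040), and week 7 lay below week 3 in all libraries. The summed testis markers were 828 to 1307 FPKM at week 7 and 1223 to 1466 FPKM at week 3, and the 5 paralogs were all below 0, with a median of -0.13 and 0 called.

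ND-AGGG stood out by being high at week 5 alone. It had 16.3, 21.5 and 28.7 FPKM at week 5 (lowest, median, highest, n = 8), against 10.1, 13.1, 11.0, 9.71 and 10.3 FPKM at week 3, with 11.8, 10.9, 12.5, 11.3 and 10.6 FPKM at week 7. Week 5 did not overlap either age, and this also held over all 16 libraries of week 5, at 16.3 to 30.98 FPKM. The change was 0.94 ± 0.11 for week 5 against week 3 (SE, limma, adjusted p = 0.0012) and -0.88 ± 0.11 for week 7 against week 5 (limma, adjusted p = 0.013).

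These calls rest on few libraries. None of the 10 was kept in every alternative setting. For week 7 against week 3 the members called were 3 without ZT6, 0 without ZT12 and 1 without ZT18, and with median-of-ratios scaling 2, of which 1 was higher. The changes of the called members kept their sign in every setting. Among mitochondrial ribosomal proteins, 17 of 73 were called higher and 0 lower at week 7 against week 3. Of the 34 genes of complexes II to V, 1 was called higher and 1 lower. Among all genes 6.28% were higher and 1.55% lower. These 2 lists were fitted with the deposited scaling alone, so how far their calls hold in other settings was not tested.

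**Figure D5:**
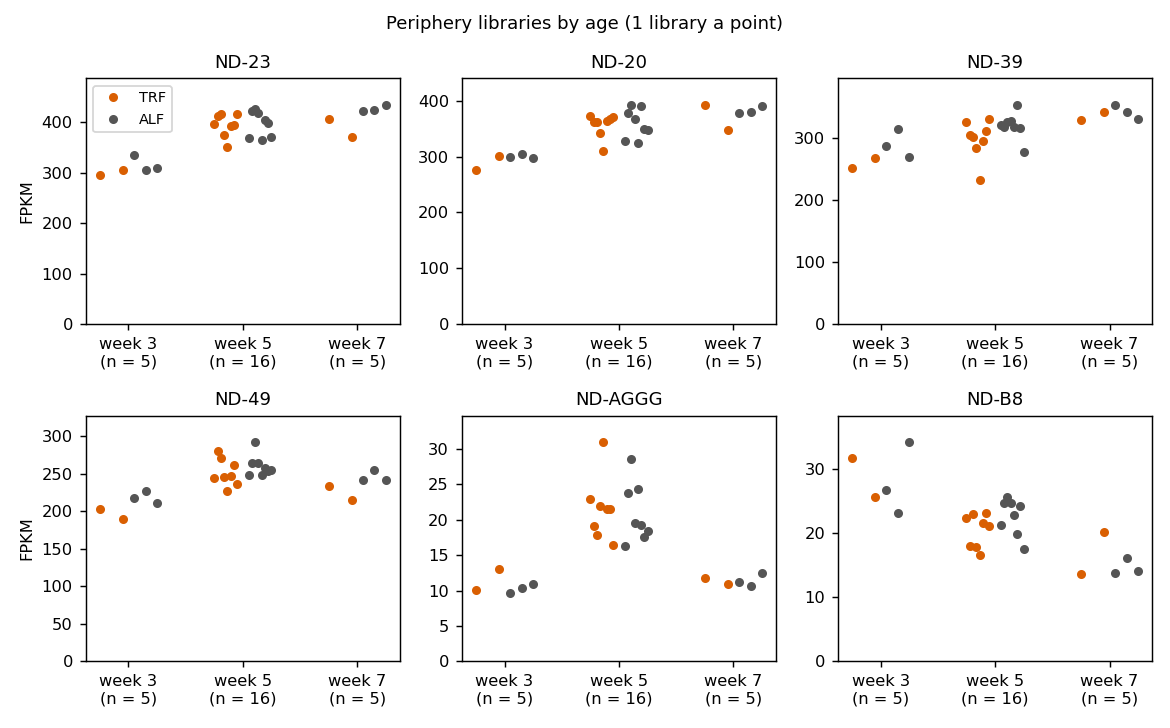
Level in FPKM of 6 subunits in each periphery library at 3, 5 and 7 weeks of age, with TRF in orange left of ALF in grey and 5, 16 and 5 libraries; the test used the 8 week 5 libraries at ZT0, ZT6, ZT12 and ZT18. ND-23, ND-20 and ND-39 lie higher at week 7 than at week 3, ND-AGGG is high at week 5 alone, at 16.3 to 30.98 FPKM, and ND-B8 lies lower at week 7 than at week 3.

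Daily rhythms of 24 h were tested at week 5 with a cosine and a sine term. By limma 0 members and 0% of all genes passed in head or periphery of either feeding group or in heart. The members with an unadjusted p under 0.05 numbered 0 in TRF heads, 0 in ALF heads, 4 in TRF peripheries, 3 in ALF peripheries and 1 in heart, and limma-voom called 0 in each. The median amplitude of the members was 0.12 in TRF heads, 0.38 in ALF heads, 0.10 in TRF peripheries, 0.09 in ALF peripheries and 0.15 in hearts, and the ALF head value contains the ZT15 library.

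The smallest adjusted p was that of ND-18 in TRF peripheries, at 0.21 (limma), with a fitted peak at ZT21.9. It had 165, 172, 142, 111, 151, 137, 171 and 177 FPKM at ZT0 to ZT21 in steps of 3 h, lowest at ZT9. ND-AGGG had the largest fitted amplitude in periphery, 0.27 in TRF and 0.26 in ALF flies, with peaks at ZT10.6 and ZT7.5 and adjusted p of 0.23 and 0.50 by limma. In heart the largest was 0.26 for ND-MWFE, with a fitted peak at ZT15.3 (limma, adjusted p = 0.42).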

How the data were processed

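RNA was measured in 72 polyA+, unstranded libraries. The deposited values are FPKM for 29260 transcripts, and build dm3 and the tools HOMER, STAR 2.2.0c and CASAVA 1.8.2 are named, per the submitters' processing notes; the role of each is not given in the sources used here. For each of 15240 genes, only the transcript of highest mean level entered. 5900 genes and 18 members have several transcripts. Low FPKM values fell on steps of whole reads within 0.03 reads in 100% of those checked, which gave each library's depth.

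Groups follow the labels, with 1 library per tissue, week, feeding and ZT, so libraries of different ZT stand in for replicates and p-values measure the spread between them. The 12 libraries whose ninaE level went against the label (limit 1000 FPKM) were left out. Linear models on log2(FPKM + 1), for genes averaging 1 FPKM or more, were fitted in R 4.3.3 with limma 3.58.1 and a trended variance prior, with week and ZT as blocks and Benjamini-Hochberg adjustment over all genes at 0.05. A fold on this scale understates changes of low genes. The ZT labels pair the libraries by design, so a library with no partner at its ZT adds nothing to a TRF change. Fits were tested on simulated data. Alternatives were pseudocounts of 0.1 and 5, no filter or 5 FPKM, median-of-ratios and quantile scaling, all libraries as labelled, the mean over transcripts, limma-voom on recovered reads, no ZT block and leaving out each ZT.

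Members and gene lists were chosen with earlier results of these data known. In each comparison values are given for the called members with the 3 largest rises and 3 largest falls, or for the 2 largest and 2 smallest changes where none passed, except that rhythms and differences of TRF effects are given mainly by fitted values. From related lists of up to 8 genes all could be named, and from longer ones those called. Genes most like the members were the 10 with the highest Pearson correlation to their mean after removing tissue-by-week means. Gene symbols came from RefSeq by CG number, and all 34 members matched.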

Additional observations from a re-analysis of the deposited data

Results flagged for a closer look

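Of 72 values tested for a library far from the others of its group, 12 stood out, and chance alone would mark about 1 in 20 groups.

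In ALF heads at week 5, the ZT15 library carried 5 of them. Its mean log2(FPKM + 1) over the members was 8.222, with the next library at 7.098. ND-24 had 203.7 FPKM there (next 117.5), ND-23 429.7 FPKM (next 172.6), ND-20 352.0 FPKM (next 190.3) and ND-B8 7.331 FPKM (next 1.132). In TRF heads at week 3, the ZT12 library had a member mean of 7.122 (next 6.894) from 0.210 M reads. In TRF heads at week 5, ND-23 had 172.8 FPKM at ZT0 (next 149.1).

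In hearts, ND-51 had 300.5 FPKM in the TRF library at ZT0 (next 204.9), and ND-B8 had 2.02 FPKM in the ALF library at ZT0 (next 3.366). In TRF peripheries at week 5, the ZT9 library was low for ND-75 at 215.0 FPKM (next 263.3) and high for ND-AGGG at 30.98 FPKM (next 22.88). In ALF peripheries at week 5, ND-49 had 291.8 FPKM at ZT6 (next 263.7).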

How the results depend on the processing

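In the comparisons of TRF, of head age, of rhythm and of TRF effects between tissues, 0 members were called under each alternative run. Median-of-ratios scaling gave medians of 0.83 for heart against head, 0.042 for heart against periphery, -0.047 and -0.076 for weeks 7 and 5 against week 3 in periphery, with 2 and 1 members called, 2 called for week 7 against week 5, and -0.033 for TRF in week 7 peripheries. Quantile normalization gave -0.15 for heart against periphery, 19 called and a median of -0.069 for head against periphery, and -0.12 for TRF in week 7 peripheries. With all libraries as labelled, 18 members were called for head against periphery, 0 for weeks 7 and 5 against week 3 in periphery, and the medians were 0.025 for TRF in week 7 heads, -0.19 for TRF in week 7 peripheries, 0.30 for week 7 against week 3 in head, and -0.046 and -0.069 for week 7 against weeks 3 and 5 in periphery. Without a filter 5 members were called for week 5 against week 3 in periphery. Without the replicate block, which pairs libraries by ZT, 5 were called for week 5 against week 3 and 2 for week 7 against week 5 in periphery, and the TRF median was -0.26 in week 5 heads and -0.17 in hearts. Leaving out each ZT gave 0 to 3 members for week 7 against week 3, 0 to 3 for week 5 against week 3 and 0 to 1 for week 7 against week 5 in periphery, and TRF medians of -0.22 to -0.092 in week 3 peripheries and -0.097 to -0.050 in week 7 peripheries. The cause was not tested. ND-B8 in heads rests on 0 to 10 reads per library.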
